A study of Rattus norvegicus with 89 samples.

Results

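Kidney RNA of 6 rats given tobramycin for 1 day was compared with that of 7 rats given saline for 1 day. These 13 arrays, taken by their titles, are part of a series of 89 arrays, 1 array per rat, on rat nephrotoxicants. The tobramycin group held 3 females (4F128, 4F129 and 4F130) and 3 males (4M28, 4M29 and 4M30). The saline group held 4 females (1F101, 1F102, 1F103 and 1F104) and 3 males (1M1, 1M2 and 1M3). For comparison, 6 rats given tobramycin for 5 days, 5 given saline for 5 days, 6 given gentamicin for 1 day and 6 naive rats were used. All were Sprague-Dawley rats of 7 to 8 weeks at the start, without any genetic change, and the RNA came from the apical parts of both kidneys of each animal, homogenized together. The sources used here give neither doses nor hours of sampling. The treatment text was absent for 1F104 and named 5 days of saline for 1M2, and both were kept by their titles. Each rat is a separate animal, so the spread given below is between animals.

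Tobramycin is an aminoglycoside antibiotic. It is filtered in the glomerulus and taken up by proximal tubule cells through the endocytic receptors megalin and cubilin (encoded by Lrp2 and Cubn), and it gathers in their lysosomes, which makes the proximal tubule the main site of its toxicity. The 2 gene programmes that stand out in the results below are the interferon response, in which signalling through STAT proteins and IRF9 turns on antiviral effectors through the ISRE, a promoter element, and the circadian clock. In the clock, BMAL1 and CLOCK activate their targets, PER and CRY proteins hold them back, and the REV-ERB receptors (encoded by Nr1d1 and Nr1d2) repress Bmal1.

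The RefSeq promoters of genes from both programmes are given first, because the values of these genes carry much of what follows. They run from 250 bases before to 50 bases after the annotated start, 5′ to 3′ on the strand of the gene, on GRCr8. Capitals mark each match, on either strand, to GAAANNGAA, the ISRE core, in the first 4 sequences.
Ifi44l (chr2:243328473-243328772, plus strand): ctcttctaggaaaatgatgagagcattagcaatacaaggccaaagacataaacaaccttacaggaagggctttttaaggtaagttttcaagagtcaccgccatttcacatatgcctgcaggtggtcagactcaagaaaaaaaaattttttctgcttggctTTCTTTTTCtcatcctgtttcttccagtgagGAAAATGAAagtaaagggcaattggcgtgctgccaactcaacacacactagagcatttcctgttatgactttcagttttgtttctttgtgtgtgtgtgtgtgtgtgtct
Irgm (chr10:33742529-33742828, minus strand): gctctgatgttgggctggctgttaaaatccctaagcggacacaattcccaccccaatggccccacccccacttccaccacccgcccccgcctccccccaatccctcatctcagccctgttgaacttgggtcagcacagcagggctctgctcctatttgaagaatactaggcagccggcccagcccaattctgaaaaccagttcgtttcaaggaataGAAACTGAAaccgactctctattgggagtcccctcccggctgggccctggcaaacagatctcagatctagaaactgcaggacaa
Ifit3 (chr1:241527076-241527375, plus strand): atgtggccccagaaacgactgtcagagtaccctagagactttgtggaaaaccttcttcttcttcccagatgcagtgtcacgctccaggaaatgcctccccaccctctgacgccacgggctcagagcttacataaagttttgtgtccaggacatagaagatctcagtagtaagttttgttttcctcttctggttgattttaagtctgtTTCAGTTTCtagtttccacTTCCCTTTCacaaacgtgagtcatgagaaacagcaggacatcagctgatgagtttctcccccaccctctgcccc
Oas1a (chr12:41330216-41330515, plus strand): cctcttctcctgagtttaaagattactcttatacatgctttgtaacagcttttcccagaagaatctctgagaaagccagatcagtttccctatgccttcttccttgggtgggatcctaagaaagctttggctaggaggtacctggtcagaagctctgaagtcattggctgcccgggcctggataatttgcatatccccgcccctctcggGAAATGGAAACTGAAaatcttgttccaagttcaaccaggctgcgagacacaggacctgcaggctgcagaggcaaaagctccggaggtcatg
Of the 17 interferon genes that passed the test in either fit described below, 12 had a promoter in the table, and 9 of these held the ISRE core at least once. The same letters were present in 9.71% of all 33469 rat promoters of this length. A match is a description of the letters only. In Ifi44l, Oas1a and Ifit3 the element occurred 2 times, overlapping itself in Oas1a. In Irgm it occurred once, with its first base at position -34 from the start.

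For the clock, capitals mark TAGGTCA, a single site of the ROR and REV-ERB receptors, in Bmal1, and CACGTG, the E-box bound by BMAL1 and CLOCK, in Nr1d1.
Bmal1 (chr1:176766078-176766377, plus strand): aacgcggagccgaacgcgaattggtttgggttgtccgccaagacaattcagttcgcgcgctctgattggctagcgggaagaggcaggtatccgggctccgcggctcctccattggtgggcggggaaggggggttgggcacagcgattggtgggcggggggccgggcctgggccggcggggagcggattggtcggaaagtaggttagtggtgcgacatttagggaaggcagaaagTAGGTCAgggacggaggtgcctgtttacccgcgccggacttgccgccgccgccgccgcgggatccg
Nr1d1 (chr10:84229405-84229704, minus strand): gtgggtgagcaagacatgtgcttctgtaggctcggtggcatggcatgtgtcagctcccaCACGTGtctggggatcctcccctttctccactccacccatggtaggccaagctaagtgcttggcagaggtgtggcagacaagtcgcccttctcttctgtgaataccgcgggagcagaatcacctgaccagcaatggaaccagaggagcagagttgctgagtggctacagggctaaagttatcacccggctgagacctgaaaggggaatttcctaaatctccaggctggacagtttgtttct
Of the 5 clock genes that passed in either fit, 4 had a promoter in the table. This site occurred in 1 of them, Bmal1, and in 2.63% of all promoters. The E-box occurred in 1, Nr1d1, and in 6.42% of all promoters. TTATGTAA, the D-box bound by DBP, was in none of the 4 windows and in 0.893% of all promoters.

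Signals are the deposited intensities after each array was scaled to a common trimmed mean, and changes are differences of log2(signal + 16), tobramycin minus saline, from a limma fit with sex as a further term. A fold on this scale understates the change of dim genes. Only genes over a signal of 33.06 in at least 5 of the 89 arrays entered the test. As deposited, the trimmed mean signal was 152 to 180 in the tobramycin arrays and 136.9 to 351.7 in the saline arrays, where 1F104, 1M1 and 1M2 were the brightest. Rank correlations between the 13 arrays were 0.940 to 0.984, and 0 of the 13 contradicted their sex label. Defining markers of the proximal tubule (Lrp2, Slc34a1), the loop of Henle (Umod, Slc12a1) and the collecting duct (Aqp2) were over the limit in all 13 rats.

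Of 11420 genes, 7 passed an adjusted p of 0.05 (Benjamini-Hochberg), which is 0.0613%. The 5 that rose were Dbp, Slamf9, Ifi44l, Irgm and LOC100910973, and the 2 that fell were Bmal1 and Rnf125. At an unadjusted p under 0.05, 475 genes were higher (4.16%) and 370 lower (3.24%), against 571 that chance alone gives in all. A second fit that took the spread from all 89 arrays of the series passed 59 genes, 45 of them higher in tobramycin rats (0.394%) and 14 lower (0.123%), and 5 of the 7 were among them (all but Bmal1 and LOC100910973). The p of this second fit can be too small for genes that vary more between tobramycin rats than within other groups. The values of all 6 tobramycin rats lay above those of all 7 saline rats for 17 genes (0.149%) and below them for 13 (0.114%).

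The 7 calls depend on the rats in the comparison and on the scaling. Without scaling, 25 genes passed, 13 higher and 12 lower. Leaving out any 1 rat gave 0 to 71 genes. It gave 71 without 4M28, 20 without 1M1, 1 without 1F101 and 0 without any other rat. The 7 genes kept their sign in all 30 other settings, of which leaving out 1F104 was counted 2 times, and each passed in 7 or 8 of them.

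Dbp encodes a transcription factor that carries clock time to metabolic genes. Its signal was 233, 346 and 502 in tobramycin rats (lowest, median and highest), against 115.4, 124.4 and 237.6 in saline rats. The groups overlapped by 1 rat on each side, the tobramycin male 4M28 and the saline male 1M1. The change was 1.17 ± 0.18 (log2 ± SE), 2.25-fold, with an adjusted p of 0.0431 from limma, and it was 1.00 in males and 1.32 in females.

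Bmal1, the activator at the centre of the clock, had signals of 58.6, 78.8 and 91.6 in tobramycin rats and 118.5, 123.1 and 156.8 in saline rats. Every tobramycin rat was under every saline rat of day 1. It fell by 0.66 ± 0.11, with an adjusted p of 0.0431 from limma, and the mean change was -0.67 in males and -0.66 in females.

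The REV-ERB genes Nr1d1 and Nr1d2 were higher beside it. Nr1d1 had 166, 274 and 352 in tobramycin rats, against 88.06, 145.9 and 186.8 in saline rats, and only 4M28 lay within the saline range. Nr1d2 had 746, 819 and 1124 in tobramycin rats, against 399, 577 and 695 in saline rats, with no overlap. Their changes of 0.95 ± 0.18 and 0.61 ± 0.13 had adjusted p of 0.0692 and 0.0783 and so did not pass in the 13 arrays, while in the fit on all arrays the limma adjusted p was 0.00518 for Nr1d1 and 0.0158 for Nr1d2.

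Cry1, which encodes a repressor of the clock, went the other way. Its signal was 59.7, 66.0 and 84.0 in tobramycin rats, against 102.6, 127.2 and 281.8 in saline rats, so the groups did not overlap. The change of -0.90 ± 0.16 had a limma adjusted p of 0.0570 in the 13 arrays and 0.00500 in the fit on all arrays. It was -0.57 in males and -1.19 in females, and the sexes were not shown to differ (adjusted p = 1.00).

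In the list of clock repressors and outputs, 12 of 13 tested genes were higher, with a median change of 0.25, and Cry1 was the lower one. This list and those below were chosen with earlier results of these data known, so their counts are description and not a test. Without scaling of the arrays, which moved the median of all genes to -0.30, the median of this list was -0.07. One passed upwards (Dbp), and 6 were higher at an unadjusted p under 0.05, as were 4.16% of all genes. The list of clock activators also holds the repressor gene Nfil3. Of its 5 tested genes 4 were lower, with a median of -0.25, Rora was at 0.06, and Bmal1 was the 1 that passed. Over all 11420 genes, 5711 were higher and the median was 1.8e-05. Nfil3, whose product competes for the D-box, changed by -0.38 ± 0.15, Npas2 by -0.25 ± 0.14 and Clock by -0.18 ± 0.11. Per2, a light- and hormone-responsive repressor, changed by 0.09 ± 0.17, with 0.54 in males and -0.30 in females, and turned sign in 4 other settings.

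Values against untreated (naive) rats were smaller for the same genes. Saline minus naive was -0.55 for Dbp, -0.53 for Nr1d1, 0.45 for Cry1 and 0.19 for Bmal1, and tobramycin minus naive was 0.59, 0.40, -0.46 and -0.47 in the same order. Mean Dbp signal was 354 ± 92.2 in tobramycin rats (SD, n = 6), 148.2 ± 44.6 in saline rats (n = 7) and 239.6 ± 110.97 in naive rats (n = 6). Dbp in naive rats thus lay between the 2 groups, and its range of 152 to 438 overlapped both. Whether time of day differed between groups was not tested, as no sampling hours were at hand.

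**Figure D1:**
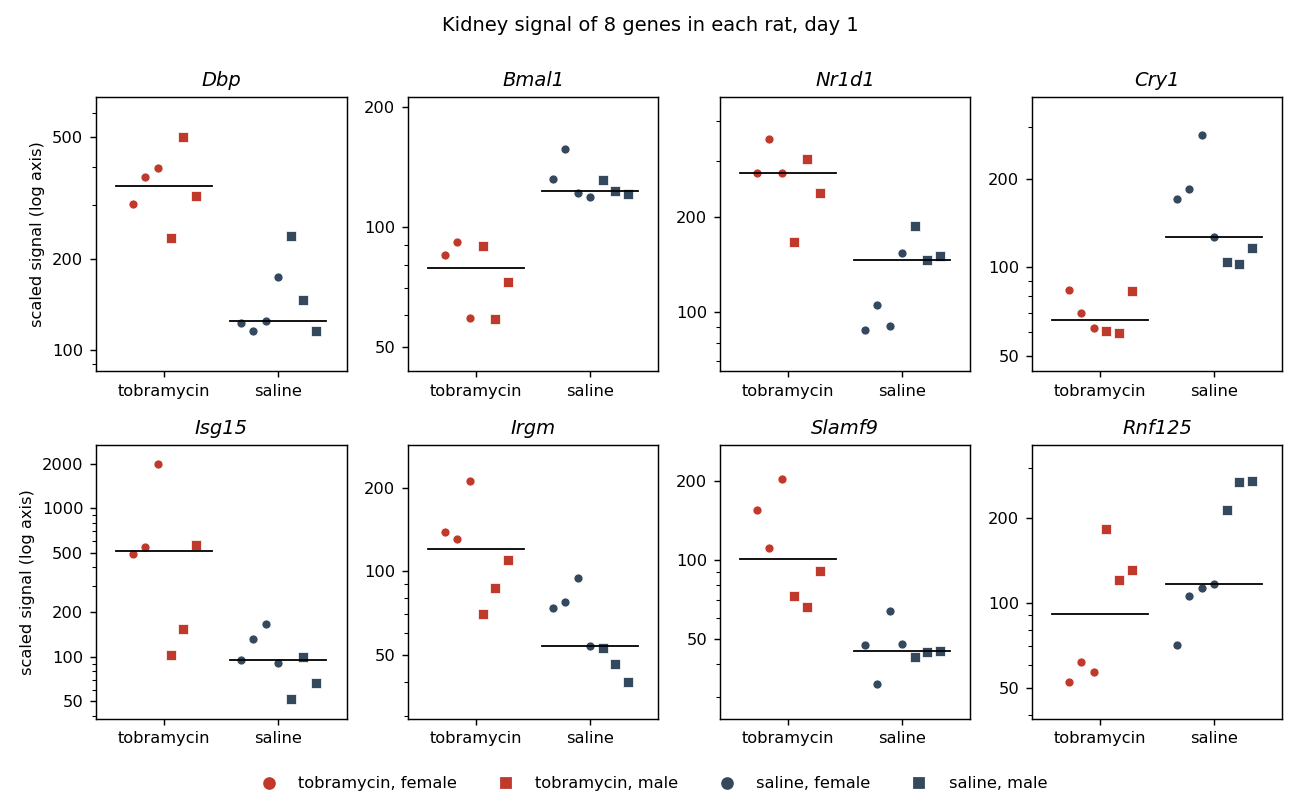
Scaled signal (log axis) of 8 genes in each of the 6 tobramycin rats (left) and 7 saline rats (right), with circles for females, squares for males and a line at the group median. Bmal1 and Cry1 do not overlap between the groups, and Isg15 spans 103.2 to 1985 among tobramycin rats.

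Interferon-response genes were higher in tobramycin kidneys as a block. Their list was chosen with earlier results of these data known, so its counts are description and not a test. All 37 tested members of the list were higher, with changes from 0.25 to 2.06 and a median of 0.76. Of them 2 passed in the 13 arrays (Ifi44l and Irgm), and 35 had an unadjusted p under 0.05 (4.16% of all genes were higher at that limit). In the fit on all arrays 17 passed, where 0.394% of all genes passed upwards. In 6 of 6 tobramycin rats 30 of the 37 were higher, as were 514 of all 11420 genes. The mean change of the list varied more between tobramycin rats (SD 0.55) than between saline rats (SD 0.13). A spread shared by all groups can thus make p too small for these genes.

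Ifi44l, an interferon-induced gene of the IFI44 family, had signals of 175, 267 and 531 in tobramycin rats, against 102.7, 143.6 and 181.8 in saline rats. Only 4M28 fell inside the saline range. It rose by 0.94 ± 0.15, 1.92-fold, with a limma adjusted p of 0.0431.

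Irgm encodes an immunity-related GTPase that acts against intracellular microbes. Signals were 70.3, 120 and 212 in tobramycin rats, against 39.8, 53.7 and 94.8 in saline rats, and the groups overlapped. Saline females had 53.7 to 94.8 and saline males 39.8 to 52.8. With sex in the fit, the rise was 0.85 ± 0.14, 1.80-fold, with a limma adjusted p of 0.0431.

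Larger differences came with larger spread. Isg15, a ubiquitin-like protein joined to other proteins in interferon-treated cells, had 488, 546 and 1985 in the tobramycin females and 103.2, 154.5 and 569.7 in the tobramycin males, against 51.7 to 165 in the 7 saline rats. Its change of 2.06 ± 0.44, 4.17-fold, missed the threshold in the 13 arrays (limma adjusted p of 0.102) and passed in the fit on all arrays (0.00485). The males 4M28 and 4M29 lay within the saline range.

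The antiviral GTPases behaved alike. Mx1 had 88.9, 354 and 1500 in tobramycin rats and 43.9, 73.9 and 145 in saline rats, a change of 1.97 ± 0.41. Mx2 had 69.6, 239 and 734 in tobramycin rats and 37.95, 44.75 and 87.47 in saline rats, a change of 1.88 ± 0.33. In the fit on all arrays both passed (limma adjusted p of 0.00518 for Mx1 and 0.00485 for Mx2), and in the 13 arrays neither did (0.0950 and 0.0605). For both, 4M28 was the lowest and 4F130 the highest of the tobramycin rats.

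Irf7, a transcription factor that amplifies the response, changed by 1.54 ± 0.33, and Usp18, a protease that removes ISG15 and damps signalling, by 1.52 ± 0.34. Ifi27l2b, which is not in the list, changed by 1.72 ± 0.37, Ifit3, which binds viral RNA complexes, by 1.48 ± 0.33, and Oas1a, which senses double-stranded RNA, by 1.40 ± 0.30. Ifgga2l1 changed by 1.18 ± 0.27, Lgals3bp, a secreted glycoprotein that binds galectins, by 1.18 ± 0.21, and Rtp4 by 1.09 ± 0.19. None of these 8 passed in the 13 arrays, where the limma adjusted p ran from 0.0570 for Rtp4 to 0.109 for Usp18, and all 8 passed in the fit on all arrays.

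The size of the response differed widely from rat to rat. The mean change over the 37 genes, each rat against saline rats of its own sex, was 1.81 in 4F130, 0.95 in 4F129 and 0.81 in 4F128, and 1.09 in 4M30, 0.50 in 4M29 and 0.21 in 4M28. The 7 saline rats ran from -0.13 to 0.21. All tobramycin rats were therefore at or above the highest saline rat, 1F103, but 4M28 was above it by less than 0.01. The median change of the list was 0.55 in males and 1.00 in females, and no gene of the list passed a test of the difference between the sexes.

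Against the 6 naive rats all 37 members were again higher, with a median of 0.56. Saline rats were lower than naive rats for 35 of the 37, with a median of -0.24. With 4F130 left out the median of tobramycin minus saline was 0.60, and with 4M28 left out it was 0.87.

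**Figure D2:**
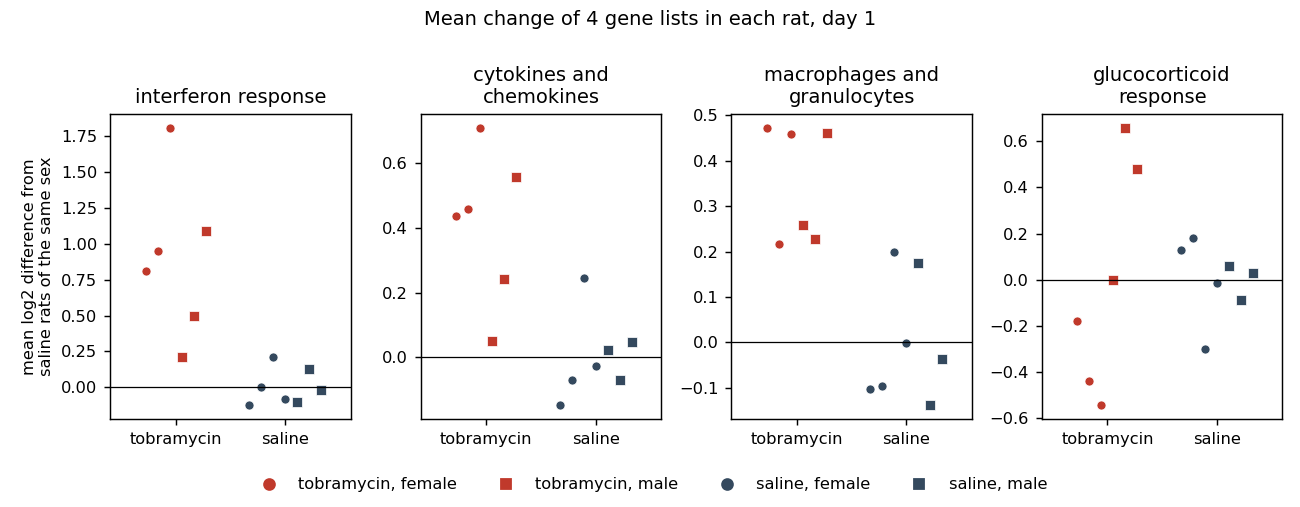
Mean log2 difference from saline rats of the same sex over the genes of 4 lists, in each tobramycin rat (left) and saline rat (right), with circles for females and squares for males. The interferon scores run from 0.21 to 1.81 in tobramycin rats and from -0.13 to 0.21 in saline rats, and the glucocorticoid scores are below 0 in the 3 tobramycin females and at or above 0 in the males but for 4M28 at -0.0009.

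Of 17 tested antigen presentation genes, 13 were higher, with a median of 0.24. The 4 lower ones, none at an unadjusted p under 0.05, were RT1-Ba at -0.85, RT1-Bb at -0.52, RT1-CE5 at -0.44 and Ciita, the activator of class II genes, at -0.10. By rat, the mean change of this list was -0.09 to 0.47 in tobramycin rats and -0.17 to 0.18 in saline rats, and 4F130, with the highest interferon score, was at 0.06. None passed in the 13 arrays, and 8 were higher at an unadjusted p under 0.05, as were 4.16% of all genes. In the fit on all arrays 4 passed upwards, as did 0.394% of all genes. B2m, the light chain of class I molecules, had 5012, 5235 and 5749 in tobramycin rats, against 3515, 4113 and 4740 in saline rats, without overlap. Its change was small but similar from rat to rat, 0.36 ± 0.07, with a limma adjusted p of 0.0605 in the 13 arrays and 0.0229 in the fit on all arrays. In the 30 other settings the change of B2m ran from 0.03 to 0.40.

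The inducible subunits of the immunoproteasome, which cuts peptides for class I molecules, were higher in all 6 tobramycin rats. Psmb9 changed by 1.03 ± 0.20, Psmb8 by 0.88 ± 0.20 and Psmb10 by 0.70 ± 0.16. The class I gene RT1-S3, outside the list, changed by 1.01 ± 0.18 and the guanylate-binding protein gene Gbp7, also outside it, by 1.04 ± 0.19. These 5 had limma adjusted p of 0.0605 to 0.104 in the 13 arrays and passed in the fit on all arrays. Class I genes form a family of similar copies, so a probe set named RT1-S3 may read related genes too.

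Cytokine and chemokine genes were higher for 18 of 18 tested, with a median of 0.26. At an unadjusted p under 0.05, 9 were higher, as were 4.16% of all genes. None passed in the 13 arrays. Cxcl11, a chemokine that draws activated T cells through CXCR3, had 520, 802 and 2381 in tobramycin rats, against 162, 264 and 405 in saline rats, and the groups did not overlap. The change of Cxcl11, 1.68 ± 0.35 or 3.21-fold, had a limma adjusted p of 0.0906 in the 13 arrays and 0.00279 in the fit on all arrays, where only Xbp1 had one as small. The mean change was 0.78 in males and 2.48 in females, a difference that did not pass (adjusted p = 1.00).

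The other CXCR3 ligands were higher too but passed in neither fit. Cxcl10 changed by 1.19 ± 0.31 and was higher in 5 of 6 rats, and Cxcl9 changed by 0.75 ± 0.18 and was higher in 6 of 6. Il18, which encodes a cytokine of the inflammasome, changed by 0.36 ± 0.11. In the complement list 6 of 9 genes were higher, with a median of 0.27, and C1qa, a subunit of the first complement component made by macrophages, changed by 0.54 ± 0.14.

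Markers of macrophages and granulocytes were higher for 21 of 22 tested, with a median of 0.33, which was 0.067 without scaling of the arrays. The lower one was Mrc1, a mannose receptor, at -0.49. Of the higher ones, 13 had an unadjusted p under 0.05 (4.16% of all genes were higher at that limit). Slamf9, a receptor of the SLAM family, passed. The list, which holds Slamf9, was chosen with earlier results of these data known, so its counts are not a test. Slamf9 had 65.88, 100.9 and 204.0 in tobramycin rats, against 33.5, 45.0 and 64.1 in saline rats, and every tobramycin rat was above every saline rat. It rose by 1.04 ± 0.17, 2.06-fold, with a limma adjusted p of 0.0431.

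Cd68, a lysosomal protein of macrophages, was also apart, with 85.91, 111.4 and 135.1 in tobramycin rats and 44.3, 64.8 and 85.7 in saline rats, though by less than 1 unit of signal. Its change was 0.65 ± 0.13 (limma adjusted p of 0.0761). Ptprc, which encodes the leukocyte antigen CD45, changed by 0.45 ± 0.09 and Fcer1g, a signalling chain of Fc receptors, by 0.52 ± 0.11. None of these 3 passed in the fit on all arrays.

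The mean change of the myeloid list was 0.22 to 0.47 in the tobramycin rats and -0.14 to 0.20 in the saline rats, and the summed signal of its 25 genes on the array was 5115 to 6971 in tobramycin rats and 3698 to 5427 in saline rats. All 7 tested lymphocyte genes were higher, with a median of 0.31, while the defining markers Cd3e and Cd79b were under the limit in all 13 rats. In whole tissue, more cells of a type and more RNA per cell cannot be told apart. The part of myeloid cells in the interferon and chemokine values was not tested.

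LOC100910973, which rose by 0.76 ± 0.12 (limma adjusted p of 0.0431), has no role given in the files. Its signal was 749, 878 and 1326 in tobramycin rats, against 435, 560 and 715 in saline rats, without overlap. Saline rats were lower than naive rats by 0.51, and tobramycin rats were 0.24 above naive rats.

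Rnf125, a ubiquitin ligase known to curb signalling from the RNA sensor RIG-I, was the second gene that fell. It had 52.4, 56.8 and 61.4 in tobramycin females, against 70.7 to 116 in saline females, and 120.1, 130.7 and 182.2 in tobramycin males, against 212, 268 and 268 in saline males. Within each sex the groups did not overlap, while across the sexes they did. The fall was 0.70 ± 0.12 on the log2 scale (change of -0.70). The limma adjusted p was 0.0482 in the 13 arrays and 0.0361 in the fit on all arrays. In the 30 other settings the smallest change of Rnf125 was -0.22. Its mean signal was 100.6 ± 52.4 in tobramycin rats and 164.7 ± 82.7 in saline rats (SD). In the 6 naive rats it was 114.6 ± 40.9, closer to the tobramycin mean than to the saline mean.

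**Figure D3:**
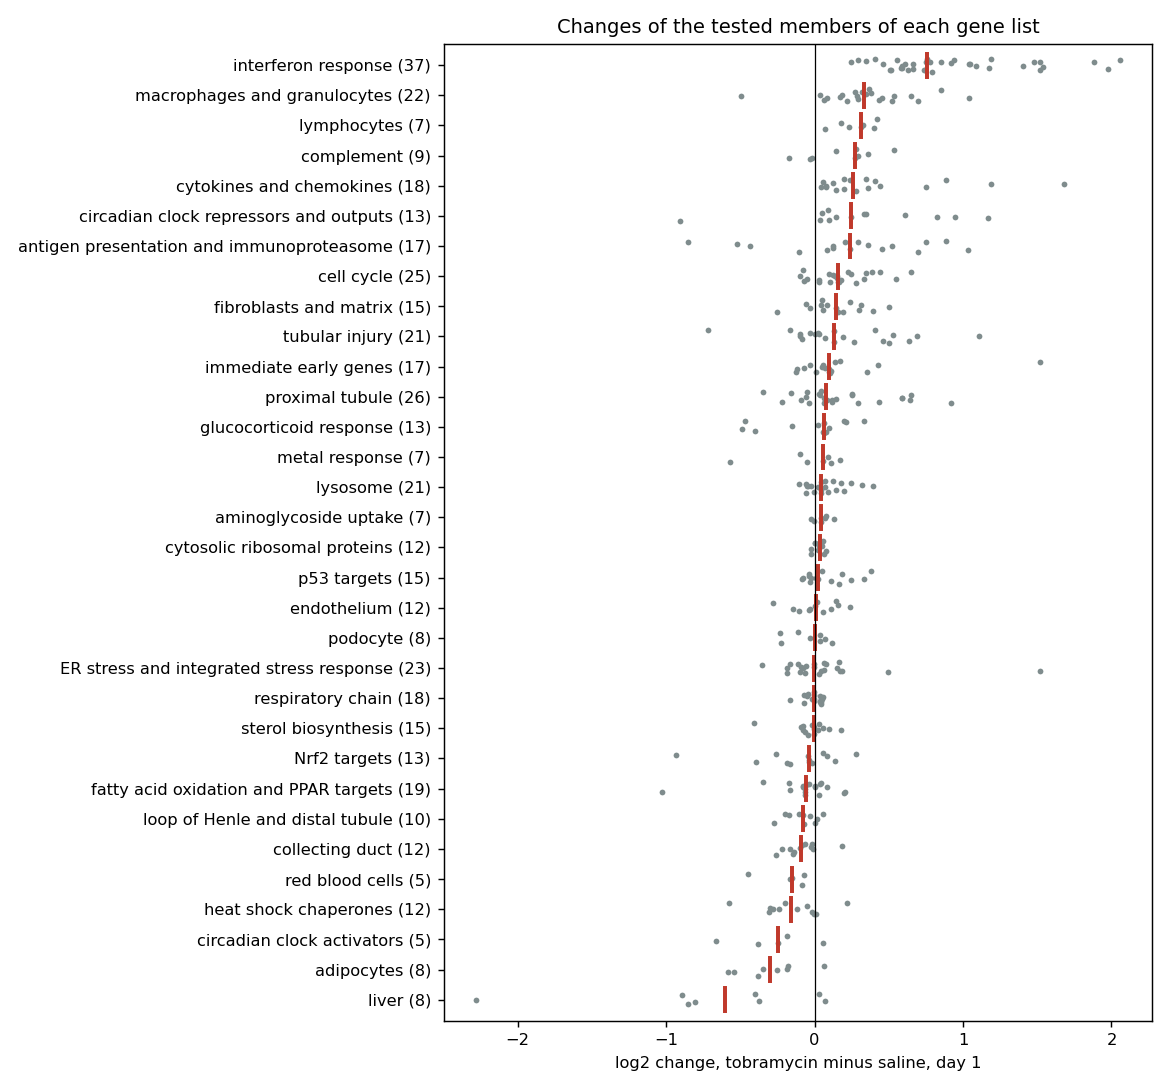
Change of each tested member (grey points, log2, tobramycin minus saline) of the gene lists with at least 5 tested genes, with the list's median as a red bar and the number tested in brackets. The interferon list lies wholly above 0 with a median of 0.76, and the liver list has the lowest median, -0.60.

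Stress genes did not move as 1 block. Atf3, an early stress-induced transcription factor, was higher in all 6 tobramycin rats, with 30.9, 93.0 and 228 against 19.5, 21.7 and 42.1 in saline rats, of which 6 were under the limit of 33.06. Its change was 1.52 ± 0.32 (limma adjusted p of 0.0906, and 0.0104 in the fit on all arrays). Gadd45b, another stress-induced gene, changed by 1.07 ± 0.25 and passed in the fit on all arrays alone (0.00547).

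Xbp1, Creld2 and Manf, genes of protein folding in the endoplasmic reticulum, were lower. Xbp1, the transcription factor that enlarges the secretory pathway, had 1069, 1221 and 1370 in tobramycin rats, against 1424, 1555 and 1794 in saline rats, without overlap. Its change of -0.35 ± 0.07 had a limma adjusted p of 0.0616 in the 13 arrays and 0.00279 in the fit on all arrays. Creld2 changed by -0.52 ± 0.15 and passed in the fit on all arrays (0.0203), and Manf, a secreted factor induced by unfolded proteins, by -0.46 ± 0.12 and passed in neither. Manf was chosen after its values were seen. The whole list of ER stress and integrated stress response genes was even, with 11 of 23 higher and a median of -0.0005.

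Heat shock chaperones were lower for 10 of 12 tested, with a median of -0.16, and none passed in the 13 arrays. Hspa1a, the inducible HSP70, had 218, 389 and 462 in tobramycin rats, against 389, 624 and 898 in saline rats. The overlap came from the saline males, which had 389 to 460. Its change of -0.57 ± 0.16, with -0.29 in males and -0.82 in females, passed in the fit on all arrays alone (limma adjusted p of 0.0261). Mean Hspa1a signal was 380 in tobramycin rats and 602 in saline rats of day 1. It was 464 in naive rats and 416 in saline rats of day 5, both closer to the tobramycin mean.

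Cirbp and Rbm3, RNA-binding proteins induced by mild cold, were chosen after their values were seen. Cirbp had 205, 344 and 435 in tobramycin rats, against a median of 202.1 and a highest value of 267.1 in saline rats, and changed by 0.62 ± 0.15. Rbm3 had 950, 1309 and 1799 in tobramycin rats, against 732, 898 and 1090 in saline rats, and changed by 0.51 ± 0.11. Neither passed in the 13 arrays, and both passed in the fit on all arrays (limma adjusted p of 0.0452 and 0.0338). At day 5 mean Cirbp signal was 275 in tobramycin rats and 276 in saline rats. Mean Rbm3 signal at day 5 was 1331 in tobramycin rats and 1162 in saline rats. The day 5 saline rats had Rbm3 signals of 1030 to 1534, inside the range of the day 1 tobramycin rats.

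Of the remaining genes lower in the fit on all arrays, Hoxb4, a homeobox transcription factor, had the largest change, -0.56 ± 0.12. Dapk1, a kinase linked to cell death, changed by -0.42 ± 0.11, Slc18b1, a polyamine transporter, by -0.44 ± 0.17 (lower in 4 of 6 rats), and Acly, which makes acetyl-CoA for lipid synthesis, by -0.28 ± 0.08. Chd9, a chromatin remodeller, changed by -0.29 ± 0.06, Nxf1, an mRNA export factor, by -0.27 ± 0.07 and Alg2, an enzyme of N-glycan assembly, by -0.23 ± 0.06. Nxf1, Chd9 and Alg2 did not overlap between the groups in the probe set used, but 1 further probe set each of Chd9 and Alg2 had the opposite sign.

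Cell cycle genes were higher for 21 of 25 tested, with a median of 0.16. At an unadjusted p under 0.05, 6 were higher, as were 4.16% of all genes. The list holds the 6 subunits of the MCM helicase, which opens DNA for replication. Mcm5 had 36.1, 50.5 and 57.2 in tobramycin rats, against 13.5, 26.97 and 32 in saline rats, which were all under the limit, and changed by 0.65 ± 0.12 (limma adjusted p of 0.0570, and 0.0136 in the fit on all arrays). Its mean signal was 48.3 in tobramycin rats, 44.8 in naive rats, 39.9 in saline rats of day 5 and 25.5 in those of day 1. In the 30 other settings the change of Mcm5 ran from 0.09 to 0.94. Mcm3 changed by 0.44 ± 0.12, Mcm4 by 0.34 ± 0.11 and Mcm6 by 0.55 ± 0.20, and these 3 passed in neither fit. Mcm2 was at 0.23 and Mcm7 at -0.10, both with an unadjusted p over 0.05.

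Kidney injury genes were mostly higher, without a call. Of 21 tested, 15 were higher, with a median of 0.13, and none passed in either fit. At an unadjusted p under 0.05, 7 were higher, as were 4.16% of all genes. Havcr1, which encodes the tubular injury marker KIM-1, had 166, 184 and 208 in the 3 tobramycin females and 12.1, 35.4 and 44.0 in the 3 males. The saline females had 19.6, 40.3, 40.6 and 226, and the saline males 10.99, 11.74 and 12.06.

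The saline Havcr1 value of 226 belonged to 1F104, the rat without a treatment text, and it exceeded every tobramycin rat. The change was 1.10 ± 0.37 (limma adjusted p of 0.433) with that rat and 1.37 without it, and passed in neither case. The 3 tobramycin females were above the other 3 saline females, and 2 of the 3 tobramycin males were clearly above the saline males.

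Lcn2, which encodes the injury marker NGAL, had 54.81, 128.1 and 202.3 in tobramycin rats, against 42.17, 62.21 and 138.5 in saline rats, a change of 0.69 ± 0.24. Clu, a secreted chaperone, changed by 0.50 ± 0.20, Krt18, a keratin of stressed epithelium, by 0.53 ± 0.13, Timp1, an inhibitor of matrix proteases, by 0.46 ± 0.13 and Vcam1, an adhesion molecule, by 0.41 ± 0.13. The p53 target Cdkn1a, a cell cycle inhibitor, changed by 0.25 ± 0.13, and the list of p53 targets had a median of 0.02 with 9 of 15 higher.

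No gene of drug uptake was called. Lrp2 (megalin) had 5073, 5481 and 5724 in tobramycin rats, against 4856, 5182 and 5384 in saline rats. Its change was 0.07 ± 0.05, with a 95% interval of -0.02 to 0.17, and that of Cubn (cubilin) was 0.04 ± 0.09, with an interval of -0.15 to 0.24. Of the 7 tested uptake genes 5 were higher, with a median of 0.04, and none had an unadjusted p under 0.05.

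Among 21 lysosome genes 14 were higher, with a median of 0.05. At an unadjusted p under 0.05, 2 were higher, as were 4.16% of all genes. The 2 genes encode the proteases Ctsd, with a change of 0.39 ± 0.08 (limma adjusted p of 0.0662), and Ctss, with 0.32 ± 0.09. In the 30 other settings Ctsd ran from 0.07 to 0.42 and Ctss from 0.003 to 0.36. Ctss is a protease of antigen-presenting cells as well. Respiratory chain genes (18 tested, median -0.0015), cytosolic ribosomal proteins (12, median 0.04) and metal response genes (7, median 0.06) held no gene that passed, and Mt2A changed by 0.06 ± 0.13.

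Hmox1, an oxidative stress gene, had 10.3, 33.5 and 45.7 in tobramycin rats, against 20.1, 29.4 and 2595 in saline rats. The saline male 1M1 alone gave the high value, and the next saline rat was at 58.6. The change was -0.93 ± 0.86 with 1M1 and -0.04 without it. In the Nrf2 list, which holds Hmox1, 4 of 13 genes were higher, with a median of -0.04.

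Tubular cell markers showed no gene that passed. The median change was 0.08 for 26 proximal tubule genes, -0.08 for 10 genes of the loop of Henle and distal tubule, -0.09 for 12 collecting duct genes, 0.0026 for 8 podocyte genes and 0.0088 for 12 endothelial genes. The summed proximal tubule signal was 56790 to 83450 in tobramycin rats and 56510 to 78930 in saline rats.

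Among genes with the same sign in all 6 tobramycin rats, 3 of the 8 largest decreases (C4bpb, Slco1b2 and Tdo2) are typical of liver. C4bpb encodes a complement inhibitor, Slco1b2 an uptake transporter of hepatocytes and Tdo2 a tryptophan-degrading enzyme. Their changes of -0.62 ± 0.19, -0.62 ± 0.26 and -0.56 ± 0.25 did not pass in either fit. All 6 tobramycin rats were under the limit for each gene, as were 3 of 7 saline rats for C4bpb, 5 for Slco1b2 and 7 for Tdo2, so that Tdo2 was over it in no rat. Ptger3, a prostaglandin receptor of distal segments and the fourth such gene that passed in neither fit, changed by -0.56 ± 0.21.

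Liver markers split both groups. Alb, which encodes serum albumin, had 726 in 4M28 and 315 in 4F128 but 11.09 to 24 in the other 4 tobramycin rats, and 794 to 1482 in 5 saline rats but 12.2 in 1F104 and 8.71 in 1M1. Ahsg, Apoa2 and Fabp1, also made by hepatocytes, were likewise low in 1F104 and 1M1. Of 8 tested liver genes 6 were lower in tobramycin rats, with a median of -0.60, and none passed. Against naive rats 7 of the 8 were higher in tobramycin rats, with a median of 0.34. In day 1 saline rats 7 were also higher than in naive rats, with a median of 0.91. Mean Alb signal was 26.3 in naive rats, 184 in tobramycin rats and 810 in saline rats of day 1.

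The part of such tissue in the results was not tested. Alb was low in most tobramycin rats and high in most saline rats. A fit with Alb as a covariate therefore cannot separate such tissue from the treatment, and the values below are description only. With the Alb value as a covariate, a setting added after the data were seen, 0 genes passed (595 at an unadjusted p under 0.05), and the 37 interferon genes were all higher with a median of 0.73. The clock outputs had a median of 0.21 and the myeloid list one of 0.31. By rat, the interferon score was 0.21 in 4M28 and 0.81 in 4F128, the tobramycin rats with high Alb, and 0.50 to 1.81 in the other 4, while the saline rats with low Alb, 1F104 and 1M1, were at -0.08 and -0.10.

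**Figure D4:**
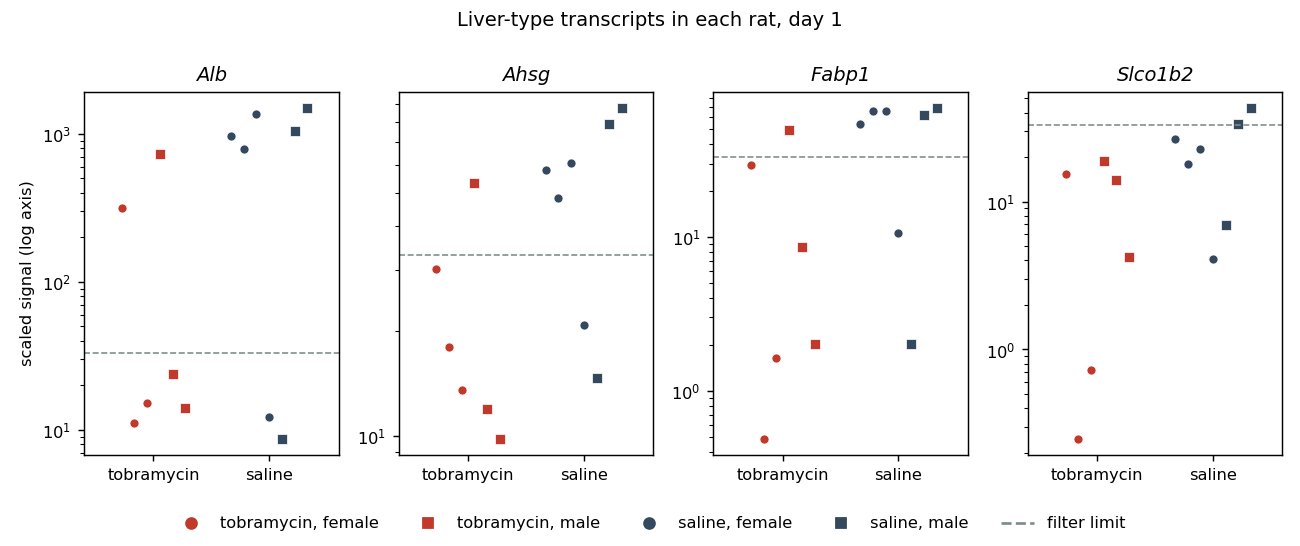
Scaled signal (log axis) of 4 transcripts typical of liver in each tobramycin rat (left) and saline rat (right), with a dashed line at the limit of 33.06 used to filter genes. Alb is under the limit in 4 of 6 tobramycin rats and in 2 of 7 saline rats.

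Adipocyte and adrenal cortex material was also looked for. Adipoq, a fat cell hormone, had 43.0 to 108 in tobramycin rats, against 56.5 to 374 in saline rats, with the saline females 1F102, 1F103 and 1F104 highest. Of 8 adipocyte genes 7 were lower, with a median of -0.30, and the median was 0.51 in males and -1.23 in females. The defining markers of adrenal cortex (Cyp11b1, Star) and skeletal muscle (Acta1, Ckm) were under the limit in all 13 rats. The 5 tested red blood cell genes were all lower, with a median of -0.15, and none passed.

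The effect of tobramycin in males minus that in females passed for 0 of 11420 genes by limma. At an unadjusted p under 0.05 there were 414, fewer than the 571 given by chance. The smallest adjusted p of this contrast, 0.141 by limma, was that of Rasgef1b, a Ras exchange factor. Its mean change was 0.57 in males and -0.75 in females. Glucocorticoid-response genes had a median change of 0.44 in males and -0.29 in females.

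In that list Sgk1, a kinase that raises sodium uptake, changed by 0.90 in males and -1.07 in females. Tsc22d3, which encodes the glucocorticoid-induced leucine zipper, changed by 0.44 in males and -1.14 in females. The difference between the sexes was 1.96 for Sgk1 and 1.58 for Tsc22d3, with adjusted p of 1.00 for both from limma. Sgk1 and Rasgef1b were chosen after their values were seen. Fkbp5, another classical target, had -0.48 in males and -0.49 in females.

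After 5 days of tobramycin (6 rats, against 5 saline rats of day 5) the interferon list was higher for 35 of 37 genes, with a median of 0.45. The change of Isg15 was 1.07 ± 0.27 at day 5, beside 2.06 ± 0.44 at day 1, and that of Mx2 was 1.18 ± 0.31, beside 1.88 ± 0.33. Cxcl11 changed by 0.18 ± 0.19 at day 5, Slamf9 by 0.34 ± 0.25 and Havcr1 by 0.02 ± 0.35. At day 5 Dbp changed by 0.70 ± 0.31 and Bmal1 by -0.52 ± 0.23, beside 1.17 and -0.66 at day 1.

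No gene passed a test of the difference between the days (0 of 11420 by limma). At an unadjusted p under 0.05 there were 497, fewer than the 571 given by chance. The difference for Cxcl11, day 5 minus day 1, was -1.51, with a 95% interval of -2.42 to -0.61, and for Xbp1 it was 0.30, with an interval of 0.10 to 0.50. For Dbp the interval was -1.30 to 0.33 and for Isg15 -2.17 to 0.17, and both intervals hold 0. These intervals are not adjusted for the number of genes tested. The smallest limma adjusted p of this contrast was 0.98, so neither Cxcl11 nor Xbp1 was shown to differ between the days.

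Gentamicin, spelled Gentamycin in the labels, is another aminoglycoside, and 6 rats received it for 1 day. It shares the day 1 saline rats with tobramycin, so the values are given side by side. The interferon list had a median of 0.81 with gentamicin (37 of 37 higher), beside 0.76 with tobramycin. Isg15 changed by 2.05 ± 0.49 with gentamicin and Mx2 by 1.92 ± 0.40. Among clock genes, Dbp was at 0.42 ± 0.15, Cry1 at 0.03 ± 0.15 and Bmal1 at -0.03 ± 0.12 with gentamicin.

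Tobramycin set directly against gentamicin, without the saline rats, passed 0 genes by limma (826 at an unadjusted p under 0.05, where 571 are given by chance). The smallest adjusted p was 0.238, for Cry1 and Gng11. Cry1 differed by -0.91, with a 95% interval of -1.24 to -0.58, and Gng11, a G protein subunit chosen after its values were seen, by 0.59, with an interval of 0.38 to 0.81. Against saline, the Gng11 probe set used gave 0.40, while a further, dimmer probe set (mean signal 31.8) gave -0.20. Cirbp differed by 0.80 (0.48 to 1.13) and Bmal1 by -0.61 (-0.92 to -0.31). For Isg15 the difference was -0.01 and its interval, -1.38 to 1.37, allows a large one in either direction. Dose and sampling hour of both drugs are not given, so they may not match.

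**Figure D5:**
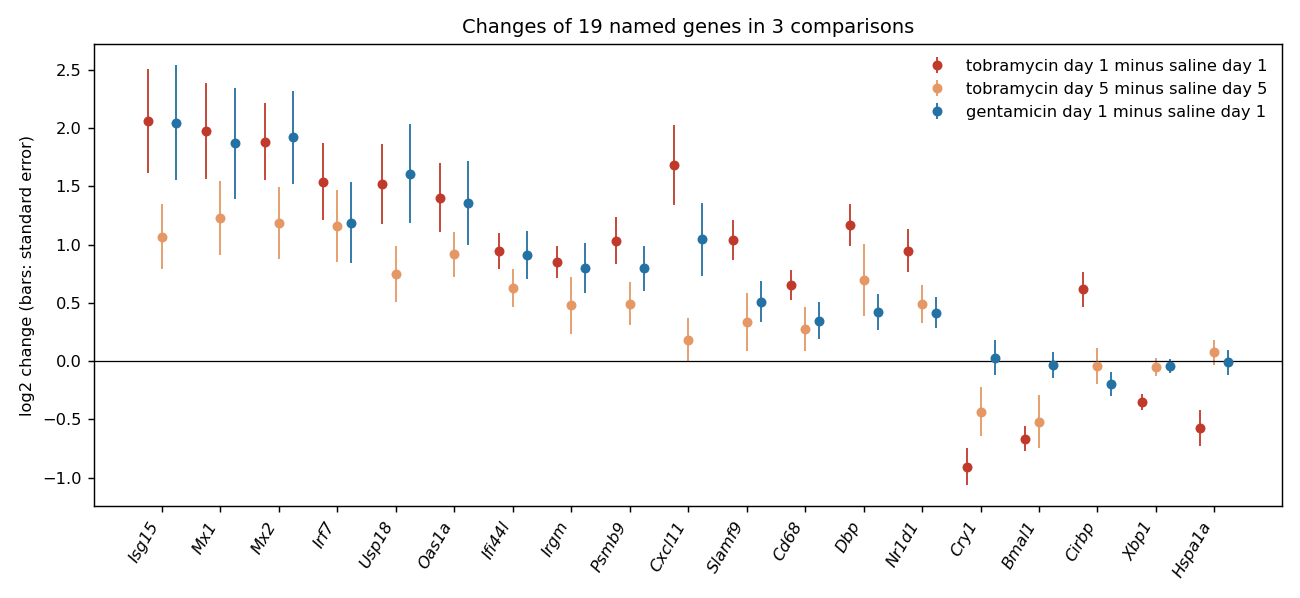
Change (log2, bars are standard errors) of 19 genes with tobramycin at day 1, tobramycin at day 5 and gentamicin at day 1, each against saline rats of its own day, the first and the last against the same 7 rats. Isg15 is at 2.06, 1.07 and 2.05, and Bmal1 at -0.66, -0.52 and -0.03.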

How the data were processed

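Kidney RNA of 89 rats was hybridised to Affymetrix arrays, 1 array per rat. The deposited table holds MAS5 intensity on a linear scale, per the submitters' processing notes and the values, with 31099 probe sets, while the sources used here do not state the version or the scaling the authors used. Deposited trimmed means ran from 91.5 to 352, so each array was scaled to a 2% trimmed mean of 180.89. Per gene, 1 probe set (highest mean) was kept, giving 14217 genes, and 11420 with at least 5 arrays over 33.06 (the 40th percentile) were tested as log2(signal + 16) with limma 3.58.1 in R 4.3.3 (trend and robust, sex as a covariate, Benjamini-Hochberg limit 0.05). Figures were drawn with matplotlib 3.10.9. The number of arrays limits the precision.

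Rats were grouped by title. Named genes are those past 0.05, the 12 largest rises and 8 largest falls with 1 sign in all 6 tobramycin rats, up to 4 per list by p, the 12 per direction with the smallest p in the fit on all arrays, and fixed injury, uptake, interferon and clock genes. Genes outside this rule are marked where they appear. Members and lists were chosen with earlier results of these data known. Of the probe sets, 20826 had 1 gene symbol, 436 several and 9780 none. For 36 of 48 named genes with several probe sets, all had the same sign. On simulated data for this comparison (11420 genes), the test recovered 34 of 67 genes changed by 0.5 (log2), 60 of 67 by 1 and 66 of 66 by 2, with 8 false calls. In the measured data Isg15 (2.06) and Mx1 (1.97) missed the limit. Interferon scores had an SD of 0.55 between tobramycin rats and 0.13 between saline rats. The recovered shares therefore need not hold for genes that vary so widely between rats.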

Additional observations from a re-analysis of the deposited data

Results flagged for a closer look

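In 85 named genes, 8 of 170 groups held a sample set apart from the rest of its group by Dixon's limit, and chance gives about 8 (1 in 20). In Havcr1, the saline female 1F104 had a signal of 226, and the next saline rat had 40.6. In Hmox1, the saline male 1M1 had 2595 (next 58.6), and the tobramycin female 4F129 had 10.3, under the next tobramycin rat at 28.9. In Hspa1a, the tobramycin male 4M28 had 218, and the next tobramycin rat had 372. Slc18b1 was at 264 in the tobramycin male 4M29 (next 562). Among saline rats, Bmal1 was at 156.8 in 1F102 (next 132.1), Atf3 at 42.1 in 1F103 (next 24.5) and Mcm5 at 13.5 in 1M3 (next 23.5). Without 1F102 the change of Bmal1 was -0.63, beside -0.66 with it.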

How the results depend on the processing

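The 7 calls changed with most settings: 59 genes passed in the fit on all 89 arrays, 25 without scaling (median of all genes -0.30), 32 with array quality weights, 45 with saline and naive rats pooled, 2 without 1F104 and 1M1 (chosen after seeing the data), 1 with the GAPDH ratio as a covariate and 1 with naive rats as controls. The count was 0 with quantile normalization (820 at an unadjusted p under 0.05), pseudocount 64 (847), eBayes without trend (880), no sex term (609), without 1F104 and 1M2, whose treatment texts were missing or different (762), without 1F104 (842) and with Alb as a covariate (595, chosen after seeing the data). It was 10 with pseudocount 1, 6 without the filter and 7 with all probe sets. Leaving out 1 rat gave 0 to 71. The contrast of the sexes gave 1 gene without scaling, with quality weights and with the GAPDH covariate, and 0 to 2 with 1 rat left out. Tobramycin against gentamicin gave 3 on all arrays, 24 without scaling and 0 to 1 with 1 rat left out. All 37 interferon genes were higher in every other setting of the main comparison except without scaling (36, median 0.50), where clock outputs had a median of -0.07 and myeloid genes 0.07. Over 85 genes and 30 settings (2550 values, with 1F104 left out counted 2 times), 2237 kept direction and side and 27 turned sign. With naive rats as controls the turned values were Slco1b2 0.080, Tdo2 0.15, Ptger3 0.0064, Per2 -0.12, Mt2A -0.044, Lrp2 -0.027, Cubn -0.11, Alb 1.13, Ahsg 0.26, Apoa2 0.082 and Fabp1 0.17. Without scaling they were Per2 -0.22, Cdkn1a -0.033, Mt2A -0.27, Lrp2 -0.25 and Cubn -0.28. With pooled controls they were Per2 -0.017 and Cubn -0.028, without the sex term Cubn -0.019, and with Alb as a covariate Mt2A -0.0011. With 1 rat left out, Per2 ranged from -0.043 to 0.18, Mt2A from -0.018 to 0.15, Cubn from -0.028 to 0.12, Sgk1 from -0.35 to 0.060 and Rasgef1b from -0.24 to 0.00082. The cause was not tested. No paired analysis was possible because the animal codes tie no tobramycin rat to a saline rat.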

Other observations

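Fibroblast and matrix genes were higher in tobramycin rats for 12 of 15 tested, with a median change of 0.15, and none passed in either fit. Immediate early genes were higher for 13 of 17, with a median of 0.10, and Atf3 was the 1 that passed in the fit on all arrays. Sterol synthesis genes had a median of -0.0052 (5 of 15 higher), and fatty acid oxidation genes one of -0.06 (8 of 19 higher), and no member of either list passed.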
